A study of Mus musculus with 90 samples.

Results

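RAW 264.7 cells, an established line of mouse macrophages, were given lipopolysaccharide (LPS) together with 1 of 2 second agents for 1 h, and the resulting RNA was compared between both combinations. The first combination was LPS at 100 ng/ml with interferon gamma at 5 nM, written LPS+IFG. The second was LPS at 100 ng/ml with the ATP analogue 2-methyl-thio-ATP at 500 µM, written LPS+2MA. Both groups were defined by their labels, and they were chosen with earlier results of these data known. Each holds 3 numbered sets, and each set holds 2 arrays with the dyes exchanged. In this way 12 of the 90 arrays of the series and 6 of its 45 replicates were compared. On every array the other channel held RNA of cells kept in medium for the same time. Neither label lists lipid binding protein, which is listed at 100 pM for LPS given alone, so the combinations match each other in this respect but not LPS alone. Nothing in the labels tells whether a set was a culture of its own, or whether 1 untreated RNA served several treatments. The p-values rest on a spread per feature that was pooled over the 45 replicates of all 15 conditions of the series. That spread may be technical, and it is not the spread of the compared samples alone.

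LPS, a bacterial cell wall lipid, is sensed by Toll-like receptor 4, which raises cytokine and early response genes through NF-kB and MAP kinases. Interferon gamma binds a receptor that activates Janus kinases, and many of the genes it raises carry GAS elements in their promoters. The regulatory factors made first, such as IRF1, then act on related ISRE sites. ATP analogues act on purine receptors of the P2 family, which are coupled to calcium entry or to G proteins, and calcium and cyclic AMP signals act on genes with CRE sites through the factor CREB.

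Promoter stretches of genes on each side of the comparison are shown because they hold these sites, so they do not tell how common the sites are. A GAS element was in 16.9% of promoters of genes higher with LPS+IFG, 17.4% on the other side and 8.3% of all promoters. For the short CRE site TGACG these shares were 11.9%, 34.8% and 20.8%, so neither site is particular to 1 side. Sequences are from RefSeq (GRCm38.p6), 5′ to 3′ on the strand of the gene, and end before the annotated start of transcription. Capitals mark GAS elements (TTCNNNGAA) and ISRE cores (GAAANNGAA) in the first 6, which belong to genes higher with LPS+IFG. The GTPase genes Irgm2 (chr11:58214882-58214941, plus strand), Igtp (chr11:58199491-58199550, plus strand) and Tgtp1 (chr11:48992295-48992354, minus strand) each hold a GAS element followed after 2 bases by an ISRE core. The stretch of Irf1 (chr11:53769904-53769952, plus strand) holds 1 GAS element, that of Irf8 (chr8:120736167-120736233, plus strand) holds 2, and that of Socs1 (chr16:10785585-10785639, minus strand) holds 2 ISRE cores that overlap.
Irgm2: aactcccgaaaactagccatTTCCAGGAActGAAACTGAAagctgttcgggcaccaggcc
Igtp: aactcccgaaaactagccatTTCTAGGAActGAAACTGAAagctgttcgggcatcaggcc
Tgtp1: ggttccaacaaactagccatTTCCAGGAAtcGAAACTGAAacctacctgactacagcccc
Irf1: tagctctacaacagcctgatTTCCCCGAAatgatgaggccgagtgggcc
Irf8: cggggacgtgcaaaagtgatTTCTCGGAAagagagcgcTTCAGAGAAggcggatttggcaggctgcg
Socs1: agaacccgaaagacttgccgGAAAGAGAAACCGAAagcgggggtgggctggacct

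Capitals mark the short CRE site TGACG, on either strand, in the stretches of Nr4a1 (chr15:101266596-101266830, plus strand) and Dusp1 (chr17:26508588-26508683, minus strand), which were higher with LPS+2MA. The Nr4a1 stretch holds 4 short sites. That of Dusp1 holds 3, and the pair that overlaps is a whole CRE (TGACGTCA).
Nr4a1: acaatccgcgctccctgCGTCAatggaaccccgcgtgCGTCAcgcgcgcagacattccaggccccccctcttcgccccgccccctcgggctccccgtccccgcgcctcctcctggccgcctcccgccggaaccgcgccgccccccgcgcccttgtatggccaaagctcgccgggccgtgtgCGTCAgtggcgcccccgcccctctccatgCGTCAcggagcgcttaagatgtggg
Dusp1: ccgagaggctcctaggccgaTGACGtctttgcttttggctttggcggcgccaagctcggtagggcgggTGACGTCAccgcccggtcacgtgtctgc

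Every value below is a log2 ratio of treated over untreated RNA, and a replicate averages both dye orientations of 1 set. No label gives the direction of the deposited ratio. Cy5 over Cy3 was taken as likely, and all signs rest on it. A feature is a gene, or a probe without a gene name. Of the 11600 features tested, those with a Benjamini-Hochberg adjusted p under 0.05 in limma's moderated test and a difference of at least 1 on the log2 scale (2-fold) are called. Exact zeros, taken as missing, made up 8.48 to 17.0% of the values of an array, and 4 values lay at the upper limit of the deposited ratios (6.64), for Cxcl9, Egr1 and Egr2, all in set 3. Replicates correlated at 0.576 to 0.79 within a group across features, which are not independent. Before the sign was turned, both arrays of a set correlated at only -0.435 to -0.0829, where agreement gives a negative value. With the mean of each probe removed, the correlations ran from -0.736 to -0.447. The third set of LPS+2MA stood apart: it correlated at 0.576 and 0.601 with the other sets of its group and at 0.747 with the third set of LPS+IFG. Without it 93 features were called different between the groups, against 94 with all sets, and 84 were called both with and without it. With only the 2 groups fitted in place of all 15 conditions, 86 features were called, and 85 of these were among the 94. The arrays hold ratios, which give no level of a marker gene: of macrophage markers 7 of the 9 with a probe had a value on all 12 arrays, but so did 6 of 7 T cell and 6 of 6 B cell markers, and the labelled cell type could not be checked in this way.

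At 1 h the combinations differed in 94 features, 0.81% of those tested. Of these, 67 (0.578%) were higher with LPS+IFG and 27 (0.233%) were higher with LPS+2MA. Genes with a symbol numbered 59 and 23. The set higher with LPS+IFG was led by the chemokine Cxcl9, by interferon-inducible GTPases and by Irf1 and Irf8. The set higher with LPS+2MA was led, among named genes, by the nuclear receptor gene Nr4a1, the G protein regulator Rgs16 and Tcim, followed by the zinc finger factor gene Egr3. The replicates of both groups did not overlap for any of the 67 and for 26 of the 27, Klf2 being the exception. All 6 arrays of a group lay apart from all 6 of the other for 57 and 23. The features were selected for their difference on these same values, which favours such separation. Its share over all features was not counted, so these counts are a description. The difference had a median SE of 0.163, and its median over all features was -0.001.

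**Figure D1:**
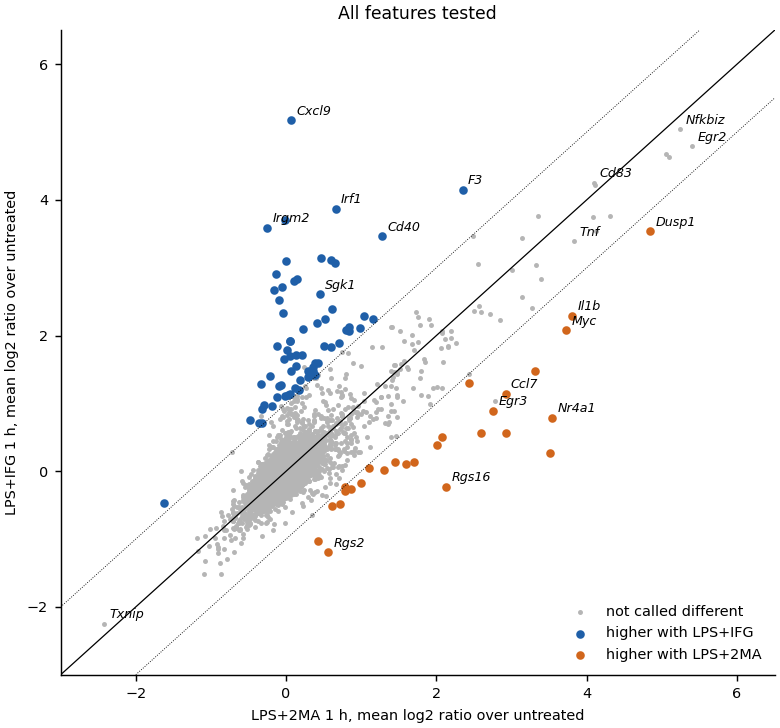
Mean log2 ratio over untreated RNA at 1 h with LPS+2MA (x axis) and LPS+IFG (y axis), 1 point per feature, with the line of equality and dotted lines at a difference of 1. The 67 features higher with LPS+IFG (blue) lie above the line, most of them near 0 on the x axis, and the 27 higher with LPS+2MA (orange) lie below it.

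Against untreated cells LPS+IFG raised 196 features (1.69%) and LPS+2MA 133 (1.15%). Both raised 97, and 87 of these were not called different between the combinations. Of the 67 features higher with LPS+IFG, 60 were raised over untreated cells by LPS+IFG and 4 by LPS+2MA, and their ratios had a median of 1.83 under the first combination and 0.13 under the second. Of the 27 on the other side, 19 were raised by LPS+2MA and 6 by LPS+IFG, with medians of 2.01 and 0.14. Since the features were selected for their difference, these medians are a description.

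Feedback and signalling genes of the interferon pathway came first in the order of their roles. Socs1, whose product inhibits Janus kinases, stood at 3.03, 2.64 and 3.79 in the 3 sets of LPS+IFG and at 0.45, 0.55 and 0.42 with LPS+2MA. The lowest LPS+IFG set lay far above the highest LPS+2MA set, and the difference was 2.68, SE 0.20 (adjusted p = 6.1e-12, limma). Cish, a relative of Socs1, differed by 1.23, SE 0.18 (adjusted p = 1.4e-05). Socs3, another inhibitor of the family, did not pass the test (-0.05 against -0.16; 95% interval of the difference -0.23 to 0.44). In all, 2 of 6 tested SOCS genes were called, with a list median of 0.17.

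The receptor, kinase and STAT genes were largely without a called difference: 2 of 12 passed, Stat3 and Stat2, and the median of the list was 0.02. Stat3, a transcription factor that also serves cytokines of the interleukin-6 family, stood at 1.71, 1.74 and 1.64 with LPS+IFG and at 0.13, 0.21 and -0.20 with LPS+2MA. The sets of LPS+IFG lay close together and well above the others, for a difference of 1.65, SE 0.15 (adjusted p = 1e-09, limma). Stat2, a transcription factor of the type I interferon response, was at 0.76 ± 0.21 with LPS+IFG and -0.48 ± 0.34 with LPS+2MA (SD, n = 3). The differences of the list ran from -0.29 to 1.65.

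Among interferon regulatory factors, Irf1 and Irf8 were called of 8 tested, and the list median was 0.32. Irf1, an early transcriptional activator of the interferon response, stood at 3.78, 3.30 and 4.52 with LPS+IFG and at 0.54, 0.29 and 1.16 with LPS+2MA. Both groups were highest in set 3, and the groups did not overlap. The difference was 3.20, SE 0.26 (9.21-fold, adjusted p = 2.43e-11, limma). Irf8, a factor of the myeloid lineage, stood at 3.21, 2.90 and 2.58 with LPS+IFG against -0.04, -0.02 and -0.36 with LPS+2MA, so only the LPS+IFG sets lay above untreated cells. The lowest difference in the list was -0.09.

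The GTPase list, whose products act on intracellular pathogens, had the highest median of all lists, 2.83. Of 7 members tested 6 were called, all higher with LPS+IFG. Irgm2 stood at 3.65, 3.71 and 3.41 with LPS+IFG and at -0.39, -0.41 and 0.06 with LPS+2MA, a difference of 3.84, SE 0.24 (adjusted p = 4.42e-13, limma). Igtp, Iigp1, Gbp3 and Gbp8 differed by 2.83, 3.11, 2.52 and 1.76. With LPS+2MA the mean ratio of these genes lay between -0.25 (Irgm2) and 0.60 (Gbp3). Tgtp1 differed by 3.73, SE 0.35, but its 2 probes gave 2.52 and 4.94. It has a near-identical neighbour, and probes of these families may not separate their members. Gbp4, the member not called, differed by 0.33.

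Secreted and surface products of the interferon gamma response differed as well, in 5 of 17 tested effectors. Cxcl9, which attracts T cells through the receptor CXCR3, had the largest difference of any feature. It stood at 5.35, 4.53 and 5.62 with LPS+IFG and at 0.06, -0.08 and 0.21 with LPS+2MA. With LPS+2MA it was near the untreated level in every set, and the difference was 5.10, SE 0.19 (34.4-fold, adjusted p = 1.57e-20, limma). One of its arrays was at the upper limit of the ratios, so the mean may lie higher. The checkpoint ligand Cd274 (3.07 ± 0.16 against 0.65 ± 0.19), the bZIP factor gene Batf2 (2.81 ± 0.43 against 0.11 ± 0.03) and the co-stimulatory receptor Cd40 (3.46 ± 0.12 against 1.28 ± 0.19) were also higher with LPS+IFG. Cd40 was above untreated cells with both combinations. Nos2, the inducible nitric oxide synthase, was not called at 1 h (0.29 against 0.03). Of the antigen processing genes 1 of 16 passed, the peptide transporter Tap1 (1.25 ± 0.25 against -0.10 ± 0.27), and the list median was 0.05.

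Of 27 interferon-stimulated antiviral genes, 8 were higher with LPS+IFG and 0 with LPS+2MA, and the list median was 0.84. By adjusted p alone, at any size of difference, 13 were higher and 0 lower, and by unadjusted p under 0.05 the counts were 17 and 0. Over all 11600 features, in either direction, 136 passed by adjusted p alone and 483 by unadjusted p. Parp14, a mono-ADP-ribosyltransferase, stood at 2.00, 2.30 and 2.42 with LPS+IFG and at 0.43, 0.53 and 0.58 with LPS+2MA. Ifi203, a member of the DNA-sensing p200 family, differed by 1.69, SE 0.27, and the ubiquitin ligase gene Trim21 by 1.62, SE 0.25 (adjusted p = 6.76e-05 and 6.44e-05, limma). Differences in the list ran from -0.56 to 1.72. Over untreated cells 15 of the 27 were raised by LPS+IFG and 3 by LPS+2MA.

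**Figure D2:**
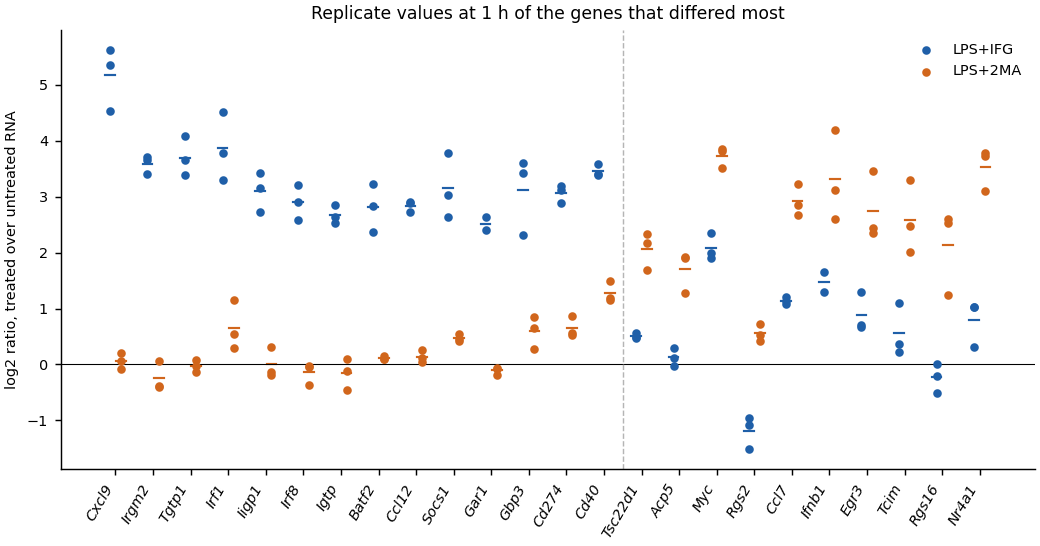
Log2 ratio over untreated RNA at 1 h in each replicate (points) and its mean (bars) for the 14 genes highest with LPS+IFG (left of the dashed line) and the 10 highest with LPS+2MA (right), ordered by the difference. Blue is LPS+IFG and orange LPS+2MA. Only called genes with a symbol whose replicates did not overlap were eligible, so the groups are apart by choice for each gene. Means run from Cxcl9 (5.17 against 0.07) to Nr4a1 (0.79 against 3.54).

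Several further genes were higher with LPS+IFG outside the core of the interferon response. Ccl12, a ligand of the chemokine receptor CCR2, stood at 2.72, 2.90 and 2.88 with LPS+IFG and at 0.05, 0.26 and 0.12 with LPS+2MA. The ribonucleoprotein gene Gar1 stood at 2.41 and 2.64 in its 2 measured LPS+IFG sets and at -0.06, -0.08 and -0.18 with LPS+2MA. F3, which encodes tissue factor, the initiator of coagulation, was raised by both combinations and more by LPS+IFG (4.15 ± 0.38 against 2.35 ± 0.36; difference 1.80, SE 0.35). With the spread of the arrays made equal its difference was 1.52 and no longer called.

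The kinase gene Sgk1 (2.61 ± 0.51 against 0.45 ± 0.15) and the transcription factor gene Cebpd (1.71 ± 0.75 against 0.21 ± 0.36) were the members of the other immediate early genes that were higher with LPS+IFG. Crem, which encodes activators and repressors of CRE sites, was the one gene of the cyclic AMP list on this side (2.18 ± 0.09 against 0.41 ± 0.13; difference 1.77, SE 0.21). Bcl3 and Map3k8, an atypical inhibitor of NF-kB and a kinase upstream of ERK, were called of 26 genes of the NF-kB list, with differences of 1.78 and 1.14. Among receptor genes, Tnfrsf1a for a TNF receptor (1.59), Fcgr3 for an Fc gamma receptor (1.07), Ccr1 for a chemokine receptor (1.02) and Ltb4r1 for a leukotriene B4 receptor (1.87) were higher with LPS+IFG. Hcar2, a receptor for hydroxybutyrate and niacin, differed by 1.85. The probes of Ccr1 gave -0.03 and 1.51 and the 4 probes of Homer1, a scaffold protein gene, gave 0.11 to 1.80, so these gene means join probes that differ. Of 15 alternatives, 6 ended the call of Ccr1, 4 that of Homer1, 3 that of Fcgr3, 2 that of Map3k8 and 1 that of Cebpd.

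On the other side, the EGR and NR4A factors had 2 of 9 members higher with LPS+2MA and 0 with LPS+IFG, and a list median of -0.47. Nr4a1, an orphan nuclear receptor gene induced early by many stimuli, stood at 1.02, 1.03 and 0.32 with LPS+IFG and at 3.72, 3.78 and 3.11 with LPS+2MA. The ranges were far apart, and the third set was lowest in both groups. The difference was -2.75, SE 0.38 (adjusted p = 4.98e-06, limma), where a negative sign means higher with LPS+2MA. Egr3 stood at 1.30, 0.70 and 0.67 against 3.46, 2.44 and 2.35 (difference -1.86, SE 0.31). Egr1 and Egr2, by contrast, were high with both combinations and not called different. Egr1 stood at 4.61, 3.39 and 5.90 with LPS+IFG, against 5.20, 4.01 and 6.09 under the other combination, and its 95% interval (-1.88 to 0.94) left room for a difference of over 2-fold.

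Genes of the cyclic AMP and CREB list were higher with LPS+2MA in 5 of 24 cases: Nr4a1, Rgs16, Rgs2, Gem and Rgs1. Over all features the share was 0.233%, and Nr4a1 is also a member of the EGR and NR4A list. Crem was called the other way (1.77), and the list median was -0.05, so the list as a whole was not shifted. Rgs proteins speed the hydrolysis of GTP by G protein alpha subunits and so shorten receptor signals. Rgs16 stood at -0.20, 0.00 and -0.51 with LPS+IFG and at 2.61, 2.53 and 1.25 with LPS+2MA, the third set again being the lowest. The difference was -2.37, SE 0.38 (adjusted p = 8.15e-05, limma). Rgs2 lay on both sides of untreated cells, at -1.08, -0.96 and -1.52 with LPS+IFG, where it was called lower than in untreated cells, and at 0.73, 0.53 and 0.42 with LPS+2MA. Gem, a small GTPase gene (-1.14), and Rgs1 (-1.13) were near the threshold: Gem lost its call under 7 alternatives and Rgs1 under 6 of the 15 tried.

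Rcan1, an inhibitor of calcineurin and a target of calcium signals, stood at 0.95, 1.15 and 1.01 with LPS+IFG and at 3.68, 3.13 and 1.53 with LPS+2MA. The groups did not overlap, but the third set of LPS+2MA was far below the others, and the difference of -1.75, SE 0.47 missed the threshold (adjusted p = 0.0541, limma). Without that set it was -2.37 (adjusted p = 0.00255), and with the replicate block -1.75 (adjusted p = 0.0274). Without the first set of LPS+2MA, however, it was -1.3 and not called. Rcan1 was called under 6 of the 15 alternatives, and its highest adjusted p over them was 0.707 (limma). The other 16 calcium and calcineurin genes gave 1 call, Homer1, which was higher with LPS+IFG (1.15). None of 16 tested purine receptor and nucleotide enzyme genes was called, and none had an unadjusted p under 0.05. Only 483 of all 11600 features had one, so its absence among 16 genes says little about them. The differences of these 16 genes ran from -0.19 to 0.21.

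Myc, a growth-promoting transcription factor gene, was raised by both combinations but more by LPS+2MA, at 3.86, 3.52 and 3.82 against 1.99, 2.35 and 1.91. The difference was -1.65, SE 0.33 (adjusted p = 0.0023, limma), and on arrays with treated RNA in Cy3 alone it was -1.44 and not called. Dusp1 and Spry1, which encode a MAP kinase phosphatase and an inhibitor of growth factor signalling, were the 2 of 8 genes of their list called higher with LPS+2MA. Dusp1 was high throughout, at 3.46, 3.24 and 3.93 with LPS+IFG, against 4.61, 4.61 and 5.31 under the other combination. Its difference of -1.30, SE 0.34 was at the edge of the threshold (adjusted p = 0.0474), and the calls of Dusp1 and Spry1 were lost under 7 and 8 of 15 alternatives. Klf2 (-1.28) and Klf4 (-1.18), Krüppel-like factor genes, were called too, Klf2 with replicates that overlapped, and lost their calls under 6 and 3 of the 15.

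Among 21 inflammatory cytokines, Il1b and Ifnb1 were higher with LPS+2MA, and the list median was -0.17. Il1b, for interleukin-1 beta, stood at 2.31, 2.82 and 1.73 with LPS+IFG and at 4.25, 3.37 and 3.81 with LPS+2MA, a difference of -1.52, SE 0.32 (adjusted p = 0.00432, limma). All 3 Il1b probes lay on the same side (-1.63 to -1.39), but the difference was not called without the first set of LPS+2MA (-1.30) or the third of LPS+IFG (-1.25). Ifnb1, for interferon beta, stood at 1.66 and 1.29 in its 2 measured LPS+IFG sets and at 2.60, 4.20 and 3.12 with LPS+2MA, and its call (adjusted p = 0.0283) was lost under 7 of 15 alternatives. Tnf was high with both, at 3.35, 2.57 and 4.24 against 3.72, 3.25 and 4.51, and was not called (95% interval -1.34 to 0.46). Il6, Il10 and Il12b differed by -0.03, 0.02 and -0.40 and were not called.

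The chemokine list gave 1 call in each direction of 17 tested. Ccl12 was higher with LPS+IFG, and Ccl7, another CCR2 ligand, was higher with LPS+2MA, at 3.22, 2.67 and 2.86 against 1.21, 1.09 and 1.14. Both genes were therefore apart from the other combination in every set, in opposite directions. Of the 3 Ccl7 probes 2 gave differences of -2.87 and -2.48, and the third gave 0.03 with ratios near 0 in both groups, so the gene mean of -1.77 understates what the first 2 probes measured. Ccl4 was high with both (3.04 with 2 measured sets, against 3.32). Further genes higher with LPS+2MA were Acp5, for tartrate-resistant acid phosphatase (0.13 ± 0.15 against 1.70 ± 0.37), Tsc22d1, a leucine zipper gene (0.51 ± 0.05 against 2.07 ± 0.34), Tcim (0.56 ± 0.47 against 2.59 ± 0.65) and the growth factor gene Bmp2 (0.10 ± 0.07 against 1.60 ± 0.90). The second LPS+2MA set of Bmp2 was at 2.64 and the others at 1.19 and 0.98, and without it the difference was -0.99 and not called. The most different feature on this side had no gene name (probe_6463), at 0.16, 0.29 and 0.38 against 3.48, 3.81 and 3.24.

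**Figure D3:**
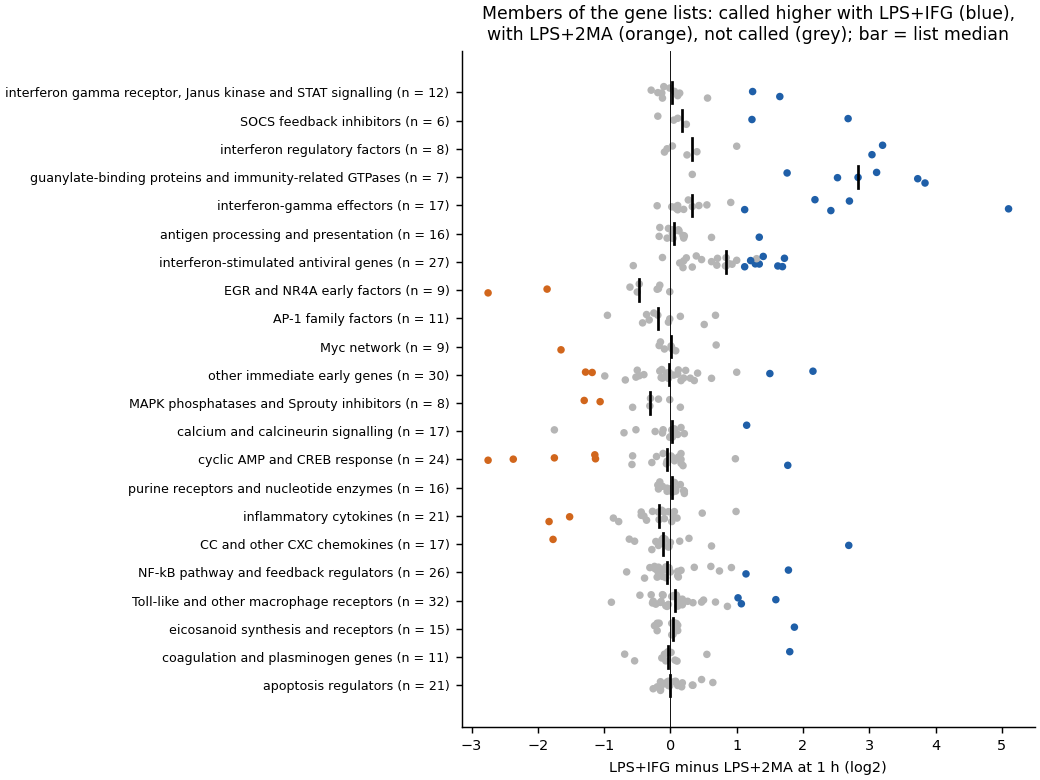
Difference between LPS+IFG and LPS+2MA at 1 h (log2, x axis) for each tested member of 22 gene lists (y axis, with the number tested), blue where called higher with LPS+IFG, orange where called higher with LPS+2MA and grey where not called. Black bars are list medians: that of the GTPases lies at 2.83 and that of the antiviral genes at 0.84, while the EGR and NR4A factors have theirs at -0.47.

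A large early response was shared. The genes raised most by both combinations without a called difference were Nfkbiz, Egr2, Phlda1, Egr1, Btg2 and Cd83. Nfkbiz, an inducible nuclear partner of NF-kB, stood at 5.23, 4.36 and 5.52 with LPS+IFG and at 5.55, 4.50 and 5.67 with LPS+2MA. Its values ran in parallel over the sets, and the 95% interval of the difference, -0.93 to 0.53, excluded a 2-fold difference. The same held for Btg2, an inhibitor of growth (4.22 against 4.11; -0.71 to 0.93), and Cd83, a surface activation marker (4.25 against 4.10; -0.41 to 0.71). It did not hold for Egr2 (-1.91 to 0.70) or Phlda1 (-1.45 to 0.66). Of all 87 features raised by both and not called different, 54 had an interval inside 2-fold in either direction, and the others had an interval that reached a 2-fold difference.

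Features lowered by both numbered 5, and none was called different. Txnip, which encodes a thioredoxin-binding protein, stood at -2.22, -2.06 and -2.46 with LPS+IFG and at -2.40, -2.44 and -2.43 with LPS+2MA (95% interval of the difference -0.42 to 0.78). Napb, Agfg2 and Zfp958 had means from -1.52 to -1.02 in both groups. None of the 11 AP-1 family genes was called, although 7 were raised by LPS+IFG and 6 by LPS+2MA. Mafk passed by adjusted p alone (difference 0.68), and 2 genes had an unadjusted p under 0.05 in each direction (483 of all 11600 features in either). Atf3 was at 3.06 and 2.56, Jun at 1.05 and 0.91 and Fos at 0.51 and 0.93. Of the 26 genes of the NF-kB list, 11 were raised by each combination, and the median difference was -0.05, with Bcl3 and Map3k8 called as given above.

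Values of the single agents at 1 h place each side of the comparison. All 67 features higher with LPS+IFG had a mean with LPS alone that lay nearer to LPS+2MA than to LPS+IFG, and for 25 of them it lay between both. Over all features tested, interferon gamma alone raised 41 (0.353%), 2MA alone 30 (0.259%) and LPS alone 119 (1.03%). Of the 67, interferon gamma alone raised 34, 2MA alone 1 and LPS alone 5. Irf1 was at 3.45 with IFG alone, 0.60 with LPS alone and -0.06 with 2MA alone. Of the 27 on the other side, LPS alone raised 12, 2MA alone 9 and IFG alone 0, and the LPS mean lay nearer to LPS+IFG for 21 and nearer to LPS+2MA for 6, between both for 25. Myc was at 2.84 with LPS, 2.54 with 2MA and -1.43 with IFG. Ccl7 stood at 1.06, 2.67 and 0.49 in the same order, and Rgs2 at -0.35, 0.93 and -1.01. Against LPS alone, with the lipid binding protein noted above, LPS+IFG was called higher in 59 of the 67 (73 of all features, 0.629%). LPS+2MA was called higher in 7 of the 27 (8 of all features, 0.069%), namely Nr4a1, Ccl7, Acp5, Bmp2, Klf4 and 2 unnamed probes. The 67 and 27 features were selected on the same LPS+IFG and LPS+2MA values, which favours such calls. The position of the LPS mean was not counted over all features, so these counts are a description.

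The difference between IFG and 2MA was next compared with and without LPS. Without LPS, 38 of all features (0.328%) were called higher with IFG than with 2MA and 32 (0.276%) lower. Of the 67 features 29 were also called higher with IFG than with 2MA when LPS was absent, and of the 27 on the other side 14 were called in their direction. The difference of both differences was called for 10 features (0.0862%; 228 had an unadjusted p under 0.05). Cxcl9 differed by 2.55 without LPS and by 5.10 with it, a gain of 2.56, SE 0.27 (adjusted p = 6.1e-07, limma). It was not raised by LPS alone (0.03). Gar1 gained 1.99, SE 0.22, Ccl12 2.07, SE 0.33 and Sgk1 2.61, SE 0.51, and in each the IFG-alone ratio was at most 0.69. For these genes the LPS+IFG ratio exceeded those with either agent alone.

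F3 gained 2.30, SE 0.49: its mean was 0.50 with IFG alone and 1.00 with 2MA alone, against 4.15 and 2.35 with LPS added. Myc went the other way in size: IFG minus 2MA was -3.97 without LPS and -1.65 with it (change 2.32, SE 0.47). Acp5 was near 0 with each single agent, at 0.27 with LPS, -0.16 with IFG and 0.14 with 2MA, and reached 1.70 with LPS+2MA only among these 5 treatments at 1 h (change -1.27, SE 0.24, adjusted p = 0.0226). The call of Gar1 was kept in all 13 alternatives of this test, those of Cxcl9 and Ccl12 in 12, and those of the other named genes in 2 (F3) to 9 (Sgk1). With the replicate block 17 features were called. The total of 10 became 3 without the third LPS+IFG set, or without the first or second LPS+2MA set.

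**Figure D4:**
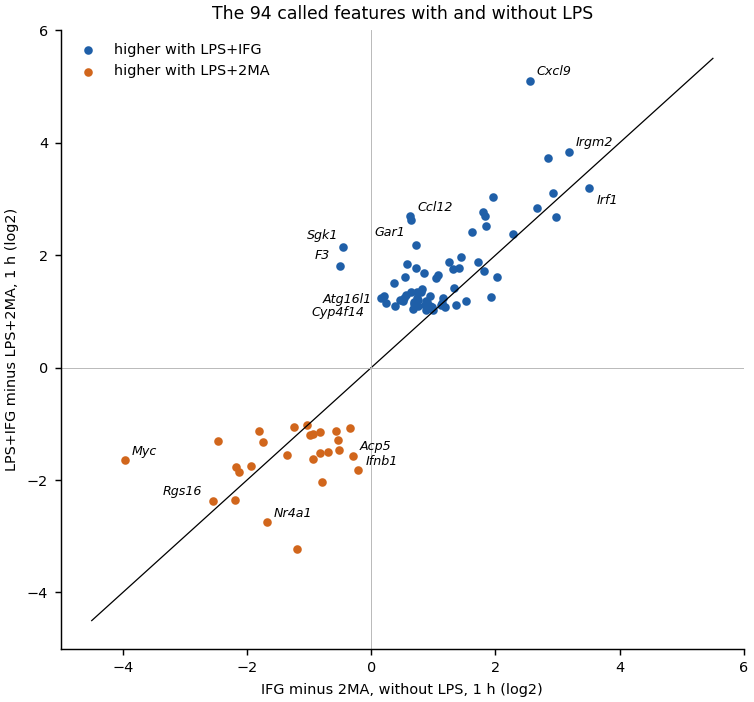
Difference between IFG and 2MA at 1 h without LPS (x axis) and with LPS (y axis), log2, for the 94 features called with LPS, with the line of equality. Blue points were higher with LPS+IFG and orange points with LPS+2MA. Cxcl9 lies at 2.55 and 5.10 and Sgk1 at -0.45 and 2.15, above the line, and Myc lies at -3.97 and -1.65.

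The comparison was then followed at 2 h and 4 h, in other samples of the series. Over all features, 95 (0.819%) were called higher with LPS+IFG at 2 h and 75 (0.647%) at 4 h, and 27 (0.233%) and 73 (0.629%) higher with LPS+2MA. Of the 67 features higher with LPS+IFG at 1 h, 44 were called in the same direction at 2 h and 17 at 4 h. Of the 27 higher with LPS+2MA, 12 were so called at 2 h and 8 at 4 h. The median difference of the 67 was 1.40, 1.34 and 0.37 at 1, 2 and 4 h, and that of the 27 was -1.52, -0.98 and -0.65. Selection at 1 h favours larger values there, so the fall of these medians is a description. The change from 1 h to 4 h itself was called for 124 features (1.07%), 77 towards LPS+2MA and 47 towards LPS+IFG. Of the 77, 35 were features called higher with LPS+IFG at 1 h, a direction of change that selection at 1 h also favours.

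Irgm2 had the largest such change of a named gene: it differed by 3.84 at 1 h, 1.86 at 2 h and 0.09 at 4 h (change -3.75, SE 0.36, adjusted p = 1.01e-07, limma). Irf1 went from 3.20 to 0.97 and 0.39, and Hcar2 from 1.85 to 0.65 and -0.93. Trim21 was the one feature called in opposite directions, with 1.62 at 1 h, -0.10 at 2 h and -1.06 at 4 h. Cxcl9 did not follow them, with differences of 5.10, 5.44 and 5.33. Ly6i, a surface protein gene, grew from 1.12 to 2.41 and 4.16, and Procr, the endothelial protein C receptor gene, and Upp1, for uridine phosphorylase, went from -0.07 and 0.20, not called at 1 h, to 2.51 and 2.35 at 4 h. On the LPS+2MA side Nr4a1 went from -2.75 to -1.82 and -0.38 (change 2.37, SE 0.54, adjusted p = 0.00987), Rgs16 was at -2.37, -1.49 and -2.36, and Acp5 at -1.57, -1.64 and -2.05.

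**Figure D5:**
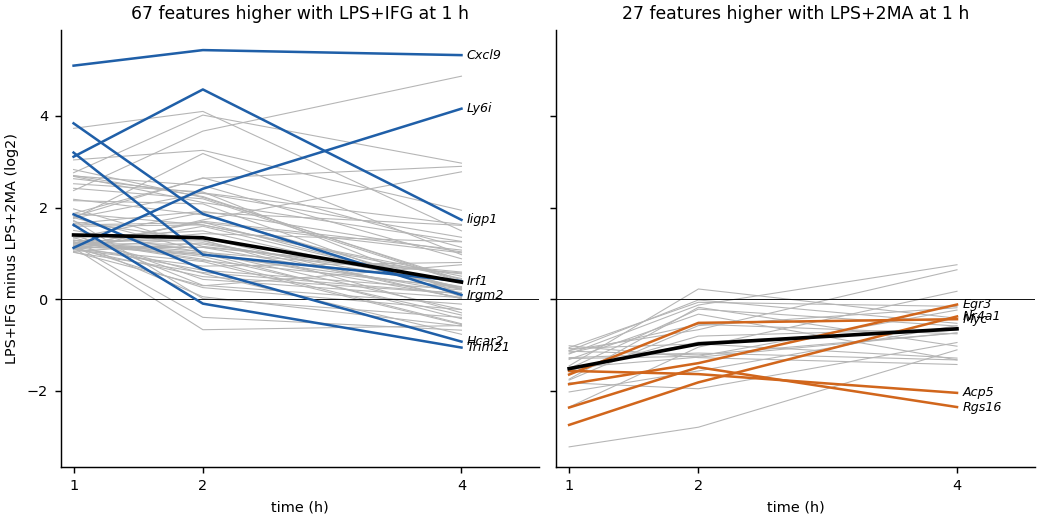
Difference between LPS+IFG and LPS+2MA (log2, y axis) at 1, 2 and 4 h (x axis) for the 67 features higher with LPS+IFG at 1 h (left) and the 27 higher with LPS+2MA (right). Coloured lines are named genes, grey lines the other features and the black line the median, which runs from 1.40 to 0.37 on the left and from -1.52 to -0.65 on the right.

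The promoter windows, 250 bases before to 50 bases after each RefSeq start, were searched on both strands for the sites named above. Of the 59 named genes higher with LPS+IFG, 44 were matched, with 59 promoters, and of the 23 higher with LPS+2MA 15, with 23 promoters. An ISRE core was found in 16 of the 59 promoters (27.1%), 1 of the 23 (4.35%) and 8.56% of all 32851 promoters in the table. A GAS element was found in 10 of 59 (16.9%), 4 of 23 (17.4%) and 8.3% of all. The short CRE site TGACG was found in 7 of 59 (11.9%), 8 of 23 (34.8%) and 20.8% of all, and the EGR site GCGNGGGCG in 1, 4 and 5.55%. A whole CRE, which contains the short site, was in 1 promoter of each set, B4galt3 and Dusp1. The AP-1 site TGANTCA was in 5 of 59, 0 of 23 and 7.81% of all. Sites matching the NF-kB consensus were in 7 of 59 and 3 of 23, against 8.46% of all, and the CArG box was in 0 of either set against 1.63%. Promoters of a gene can overlap, the sets are small, and these counts describe letters in the window and not bound factors.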

How the data were processed

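The authors deposited log2 ratios of both channels for each array, and no intensities were used here. Image analysis, background handling and normalization are not given in the sources used here. Exact zeros were taken as missing, the sign was turned where Cy3 held the treated RNA, and both arrays of a set were averaged. A set lacking either value was missing (1.05% of values after filtering). Probes measured in 2 or more replicates under all 15 conditions were kept (13711 of 16281). Probes of a gene were averaged, which gave 11600 features. Of 13790 annotated probes, 13738 named 1 gene.

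Means of the 15 conditions were fitted to 45 replicates in R 4.3.3, with variances moderated by limma 3.58.1. Tests were two-sided, with Benjamini-Hochberg adjustment over every feature of a comparison. Precision is limited by the number of arrays, and the typical residual SD was 0.199.

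Deviations of same-numbered sets of both combinations correlated at 0.311, 0.238 and 0.594, and those of different numbers at -0.528 to 0.397. Every same-numbered pair exceeded 0.1, but set 1 of LPS+IFG with set 2 of LPS+2MA (0.397) exceeded those of sets 1 and 2. Same-numbered sets of a combination and of IFG or 2MA alone correlated at -0.119 to 0.585. Whether the numbers pair the samples is therefore uncertain. The main fit left them unpaired, and the replicate block was an alternative. The others were equal array spread, zeros kept, 2 other filters, only the compared conditions, either dye orientation, a dye term over 90 arrays, single probes, no minimum difference, and each replicate left out.

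The rule for named genes took the 14 highest and 10 lowest called genes whose replicates did not overlap, and up to 3 called members per list. It added the 6 highest and 4 lowest shared genes, 39 genes named whatever their value, and the 4 highest and 4 lowest called genes with against without LPS and over time. Some of the 39 were not tested (among them Cxcl10, Gbp2, Irgm1, Fosb, Junb, Ccl2, Ccl3, Cxcl2 and Nfkbia). Atg16l1, B4galt3, Bmp2, Cyp4f14, Gbp8, Gem, Klf4, Rgs1, probe_6463, Gbp4 and Mafk were named outside this rule, after their values were seen. The groups, lists and tests were chosen with earlier results of these data known.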

Additional observations from a re-analysis of the deposited data

Results flagged for a closer look

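The following differences between conditions passed a test of the difference itself. The gap between IFG and 2MA at 1 h was larger with LPS than without it, towards IFG, for Cxcl9 by 2.56, Ccl12 by 2.07 and Gar1 by 1.99, and also for the autophagy gene Atg16l1 by 1.08 and the cytochrome P450 gene Cyp4f14 by 1.09. IFG minus 2MA was below 0 without LPS and shifted towards IFG for Sgk1 by 2.61 (from -0.45 to 2.15), for F3 by 2.30 (from -0.50 to 1.80) and for Myc by 2.32 (from -3.97 to -1.65). It shifted towards 2MA for probe_6463 (-2.03) and Acp5 (-1.27). The adjusted p was highest for F3 and Cyp4f14 (0.0484 each, limma), whose calls were lost under 11 and 9 of 13 alternatives.

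The gap between LPS+IFG and LPS+2MA changed from 1 h to 4 h for 8 further genes. It moved towards LPS+2MA for Irgm2 (-3.75), Irf1 (-2.81), Hcar2 (-2.79) and Trim21 (-2.67), and towards LPS+IFG for Ly6i (3.04), Procr (2.59), Nr4a1 (2.37) and Upp1 (2.15). Of these 8, Nr4a1 lost its call under 1 alternative, treated RNA in Cy3 only, and the other 7 under none of 13. Groups held 3 replicates, too few for a test of single outlying samples.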

How the results depend on the processing

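The 94 features called between the combinations became 81 to 93 when 1 replicate was left out, 100 with the replicate block, and 84 to 98 under the other alternatives that kept the minimum difference and joined probes. Those higher with LPS+2MA, 27 in all, were 18 to 25 with 1 replicate left out. Of the 67 features higher with LPS+IFG, 48 kept their call under every one of the 15 alternatives that tested them. Of the 27 higher with LPS+2MA, 11 did. An alternative that left a feature untested was not counted against it, and the filter for values on all 12 arrays tested 10382 features. None of the 73 named genes that was called changed direction.

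The 10 features called for the difference with against without LPS became 5 with equal spread of the arrays, 17 with the replicate block, 6 with treated RNA in Cy5 only, 4 in Cy3 only, 20 with a dye term, and 3 to 10 with 1 replicate left out. The 124 called for 4 h less 1 h became 77 with equal spread and 76 in Cy3 only; the replicate block gave 179. The cause of these shifts was not tested. With no minimum difference 136 features were called at 1 h, which counts smaller differences by construction.

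The deposited ratios carry no intensities, so signal over background is unknown, and 4 values, of Cxcl9, Egr1 and Egr2, lay at the upper limit of 6.64.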
